A study of Mus musculus with 8 samples.

Results

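The genes described here are 8 Mas-related G protein-coupled receptors (Mrgprd, Mrgpra3, Mrgprx1, Mrgprb4, Mrgprb5, Mrgpra1, Mrgpre and Mrgprf), chosen by gene symbol from a table of 40800 genes that holds 33 rows with an Mrgpr symbol. They were measured by RNA sequencing of dorsal root ganglia, which hold the cell bodies of the sensory neurons that serve skin, muscle and viscera. The ganglia came from 4 wild-type mice, labelled C57BL/6, and from 4 mutants, homozygous for a Tmem184b gene trap on that background, all 6 months old. Such a trap inserts a cassette that truncates the transcript of its host gene, and the labels name no driver that would limit it to a tissue. Libraries are called by genotype and label number, wild types 1, 3, 4 and 8 and mutants 1, 2, 3 and 4. The labels give no sex, litter or batch.

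Mas-related receptors are a rodent-expanded family of G protein-coupled receptors, many of them made almost solely in small-diameter sensory neurons. Mrgprd marks the nonpeptidergic nociceptors called NP1, which carry responses to noxious touch and to beta-alanine, an itch-inducing amino acid. Mrgpra3, a chloroquine receptor, and Mrgprx1, formerly Mrgprc11 and a receptor for a peptide cut from proenkephalin, mark the itch neurons called NP2. Mrgprb4 and Mrgprb5 mark unmyelinated fibres of hairy skin linked to gentle stroking. Mrgpra1 is a receptor for bilirubin, and Mrgpre and Mrgprf are orphan receptors with no settled ligand. The neuronal receptors signal largely through Gq proteins and phospholipase C beta to TRP channels, and their expression in development depends on the transcription factor Runx1.

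Library totals, recovered from the deposited values, were 6298533 to 7983821 reads in wild type and 6183618 to 6992793 reads in the mutant, so that 1 read was worth 0.125 to 0.162 CPM (reads scaled to the library total). Tmem184b, the trapped gene, averaged 171 ± 8.44 CPM over the wild types against 6.65 ± 1.30 CPM over the mutants (SD, n = 4 each), and each mutant lay far below every wild type. Differences below are mutant minus wild type on the authors' moderated log2 CPM scale, whose small prior count shrinks the differences of low genes. They come from limma's moderated test over all 15030 genes that passed a filter on low values, with Benjamini-Hochberg adjustment over all of them and an adjusted p under 0.05 as the call. All 8 receptors passed the filter. A lower level in whole ganglia can come from fewer cells of a type or from less RNA per cell, and these cannot be told apart here.

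All 8 receptor genes lie on chromosome 7 in GRCm38. Mrgpra1 (47334875 to 47354240), Mrgpra3 (47588950 to 47601372), Mrgprx1 (48020971 to 48027597), Mrgprb5 (48167983 to 48169019) and Mrgprb4 (48198070 to 48199288) share 1 cluster on the minus strand. Mrgpre (143778363 to 143784500, minus strand) and the neighbours Mrgprf (145300828 to 145309557) and Mrgprd (145314835 to 145324086), both on the plus strand, lie far along the same chromosome. Only 5277 bases separate the end of Mrgprf from the start of Mrgprd. Mrgprb4 and Mrgprb5 lie 29050 bases apart, and their transcripts are 84.9% identical over 1038 aligned bases. Mrgpra1 and Mrgpra3 are 83.9% identical over 1092 bases. No run of 150 bases, the read length the labels give, occurs unchanged in the longest transcript of any of the 8 genes and in another gene's annotated transcripts. A noncoding gene on the other strand overlaps Mrgpra1 (Gm45085) and another overlaps Mrgpre (Gm22064), and strand use in counting is not stated.

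The sequence before the start of Mrgprb4 and Mrgprb5 shows how close these neighbours are outside the coding part. The stretches below (RefSeq promoters, GRCm38.p6, minus strand, 140 bases each, chr7:48199289-48199428 and chr7:48169096-48169235) carry the same letter at 110 positions, or 78.6%, when set side by side without gaps. Capitals mark the letters that differ. The other 14 pairs among the 6 receptors with a promoter entry ranged from 20.7% to 29.3% by the same count.
Mrgprb4: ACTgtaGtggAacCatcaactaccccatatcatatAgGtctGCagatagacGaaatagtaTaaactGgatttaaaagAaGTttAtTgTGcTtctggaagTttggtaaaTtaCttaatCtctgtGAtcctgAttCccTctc
Mrgprb5: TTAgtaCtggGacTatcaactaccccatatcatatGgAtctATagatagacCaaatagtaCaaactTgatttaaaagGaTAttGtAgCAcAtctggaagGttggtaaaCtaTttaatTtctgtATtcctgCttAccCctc

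Runx1 is known to act on this family. The 250 bases before each RefSeq start were therefore searched for the core letters of the RUNX site, TGTGGT and TGCGGT, on both strands. Of the 6 receptors with an entry, Mrgpra1 held 1 match (ACCACA, the reverse strand of TGTGGT, 105 bases before the start), and Mrgprd, Mrgprx1, Mrgprb4, Mrgprb5 and Mrgpre held none. Among all 32851 promoter entries, 18.6% held at least 1 match. These windows are short, and the result says only that the letters are not in them. The RefSeq starts of Mrgprb4 and Mrgprb5 lie inside the gene positions given above, so their windows reach into those genes. The windows of Mrgprd and Mrgprx1, the receptors called lower that have an entry, are shown. Mrgpra3 was also called lower but has no promoter entry, so its window was not searched. The Mrgprd window is chr7:145314585-145314834 on the plus strand, and the Mrgprx1 window is chr7:48027598-48027847 on the minus strand. Neither has capitals because neither holds a match.
Mrgprd: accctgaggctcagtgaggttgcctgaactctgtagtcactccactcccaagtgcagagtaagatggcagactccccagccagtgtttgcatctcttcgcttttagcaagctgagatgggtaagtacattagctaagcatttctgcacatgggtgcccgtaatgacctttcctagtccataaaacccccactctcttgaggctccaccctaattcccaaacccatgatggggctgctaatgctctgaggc
Mrgprx1: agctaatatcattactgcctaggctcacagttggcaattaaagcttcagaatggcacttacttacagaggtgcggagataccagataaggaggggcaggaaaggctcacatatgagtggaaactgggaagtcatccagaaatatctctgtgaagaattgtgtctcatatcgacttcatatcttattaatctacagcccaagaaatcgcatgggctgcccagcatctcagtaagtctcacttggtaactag

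Of the 8 receptors, 3 fell in the mutant, Mrgprd, Mrgpra3 and Mrgprx1, each to a little over 55% of its wild-type mean, and none rose. Among all genes tested, 2.64% were called lower and 2.81% higher, 5.46% in either direction. The share of calls that were higher was 51.6%, against 22.4% under median centring and 39.1% under quantile normalization. The same 3 receptors were those whose groups did not overlap, against 4.92% of all tested genes with non-overlapping groups lower in the mutant and 12.4% in either direction. At an unadjusted p under 0.05 the count was 4 of 8, Mrgprb4 being the fourth, against 21.3% of all genes. The 7 receptors with a negative difference and the median of -0.53 over the 8 stand beside 35.6% of all tested genes with a negative difference and a median of 0.066 over all of them. The remaining 5 receptors were not called, and their intervals, given below, leave room for falls as large as those of the called receptors for Mrgprb4, Mrgprb5 and Mrgpra1 but not for Mrgpre or Mrgprf.

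**Figure D1:**
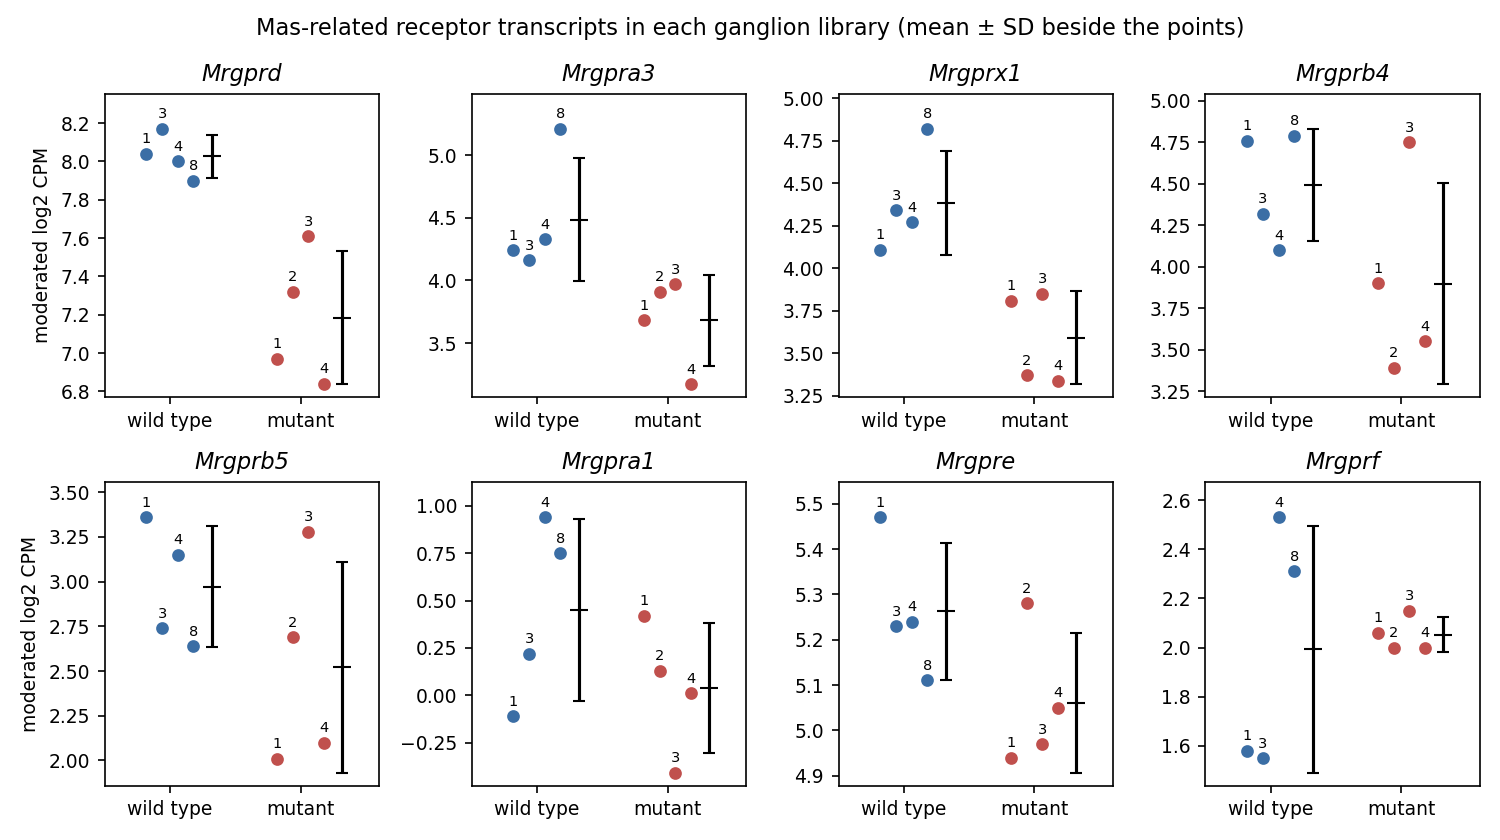
Moderated log2 CPM of each of the 8 receptors in each library, 1 panel per gene with its own axis, which does not start at 0. Points carry the label number, and the bar beside them is the mean ± SD of 4 mice. The groups separate for Mrgprd, Mrgpra3 and Mrgprx1 and overlap for the other 5 genes.

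Per kilobase of its longest annotated transcript, Mrgprd had the highest level in wild type, 83.2 ± 6.34 CPM per kilobase (SD, n = 4). Mrgprb4 (18.6 ± 4.29), Mrgpra3 (17.9 ± 6.98) and Mrgprx1 (17.8 ± 4.12 CPM per kilobase) followed, and their ranges overlapped one another. Mrgpre came next at 10.2 ± 1.09 CPM per kilobase and overlapped Mrgprb5 at 7.45 ± 1.84. Mrgprf, at 1.85 ± 0.686 CPM per kilobase, and Mrgpra1, at 1.04 ± 0.420, were lowest and also overlapped. In the mutant Mrgprd was still highest, at 47.2 ± 11.7 CPM per kilobase. The ranges of the next 5 genes, Mrgprb4 (12.9 ± 6.16), Mrgprx1 (10.1 ± 1.97), Mrgpra3 (9.92 ± 2.32), Mrgpre (8.82 ± 0.981) and Mrgprb5 (5.61 ± 2.52 CPM per kilobase), each overlapped the range of the neighbour in this order. The annotated transcript need not be the one made in ganglia, which limits this order.

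**Figure D2:**
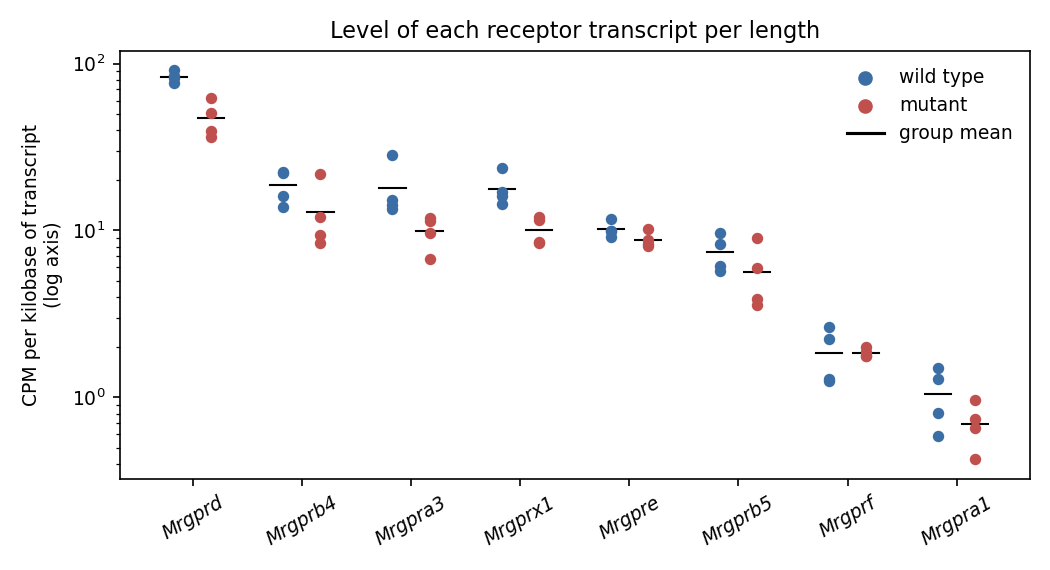
CPM per kilobase of the longest annotated transcript, on a log axis, for the 8 receptors in order of their wild-type mean. Each point is 1 mouse and the short lines are group means. Mrgprd stands above the other genes in both groups.

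Mrgprd, the receptor of the NP1 neurons, measured 264, 287, 256 and 239 CPM across wild types 1, 3, 4 and 8, and 125, 159, 195 and 114 CPM across mutants 1 to 4. The lowest wild type lay above the highest mutant. The means were 261 ± 19.9 and 148 ± 36.7 CPM (SD, n = 4), so that the mutant level was 56.7% of wild type. This gave a log2 difference of -0.85 (SE 0.127; 95% interval -1.12 to -0.57; limma adjusted p = 0.0019). Counts were 797 to 2291 reads per library, so that counting error is small beside the spread between mice. Mutant 3 held the most Mrgprd of the mutants and mutant 4 the least. Among all Mrgpr rows, Mrgprd supplied 62.6 ± 4.6% of the summed CPM of a wild type and 56.5 ± 2.9% of a mutant (SD, n = 4).

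Mrgpra3, the chloroquine receptor, measured 18.6, 17.5, 19.9 and 36.6 CPM across wild types, against 12.5, 14.7, 15.4 and 8.72 CPM in the mutants. Wild type 8 stood well above the other wild types. The difference was -0.80 (SE 0.215; 95% interval -1.26 to -0.34; limma adjusted p = 0.0438), near the threshold. Omission of wild type 1 (limma adjusted p = 0.0667) or 8 (0.0829), or of mutant 1 (0.0915), 2 (0.0570) or 4 (0.115), ended the call, and without wild type 8 the difference was -0.56. Mrgprx1, the other NP2 receptor, measured 17, 19.9, 19.0 and 28 CPM across wild types, against 13.7, 10, 14.2 and 9.87 CPM in the mutants. Wild type 8 was again the highest library, and every mutant was below every wild type. The difference was -0.79 (SE 0.163; 95% interval -1.14 to -0.44; limma adjusted p = 0.0121), and the call held with any 1 library left out, the highest adjusted p being 0.0365.

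Mrgprb4, of the stroking-sensitive fibres, measured 26.8, 19.7, 16.9 and 27.4 CPM across wild types, against 14.6, 10.2, 26.6 and 11.4 CPM in the mutants. Mutant 3 lay among the wild types and the other mutants lay below all of them. The difference was -0.60 (95% interval -1.11 to -0.08; limma adjusted p = 0.165) and was not called. Without mutant 3 it was -0.88 and was called (limma adjusted p = 0.0093). Mrgprb5, the close relative of Mrgprb4, measured 10, 6.39, 8.59 and 5.94 CPM across wild types, against 3.73, 6.15, 9.39 and 4.0 CPM in the mutants. Mutant 3 was again the highest mutant, and the groups overlapped. Its difference was -0.45 (95% interval -1.0 to 0.09; limma adjusted p = 0.332), and without mutant 3 it was -0.71 and still not called (0.0800).

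Mutant 3 was the highest of the 4 mutants for 6 of the 8 receptors, Mrgprd, Mrgpra3, Mrgprx1, Mrgprb4, Mrgprb5 and Mrgprf, and the lowest for Mrgpra1. Mutant 4 was the lowest for Mrgprd, Mrgpra3, Mrgprx1 and Mrgprf and the highest for none. Among the wild types, number 8 was highest for Mrgpra3, Mrgprx1 and Mrgprb4 and lowest for Mrgprd, Mrgprb5 and Mrgpre. In mutant 3 the mean log2 CPM of the satellite glia, fibroblast and immune marker lists was the lowest of the mutants (7.20, 6.48 and 2.83), and in mutant 4 it was the highest (7.66, 7.15 and 3.52). The lists of peptidergic, large neurofilament and red blood cell markers had the same lowest and highest mutant. The smooth muscle and endothelial lists were lowest in mutant 3 but highest in mutant 1, and the myelinating Schwann cell list was lowest in mutant 2 (7.31) and highest in mutant 1 (7.62), with mutant 3 at 7.52. The mast cell list was lowest in mutant 1 and highest in mutant 4. The C low-threshold mechanoreceptor list and the NP1 companions described below went the other way, highest in mutant 3 and lowest in mutant 4. The pan-neuronal list was 9.17, 9.23, 9.20 and 9.22 in mutants 1 to 4, with neither mutant 3 nor mutant 4 at an end. The part of these cells in the order of the mutants was not tested.

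Mrgpra1, the bilirubin receptor, had 4, 7, 11 and 11 reads across wild types, against 7, 5, 3 and 5 across mutants. At this depth its difference of -0.41 (95% interval -1.11 to 0.28; limma adjusted p = 0.506) could not be resolved from the spread between mice. Mrgpre measured 44.0, 37.2, 37.5 and 34.2 CPM across wild types, against 30.3, 38.5, 31.1 and 32.7 CPM in the mutants. Mutant 2 lay among the wild types. The difference was -0.20 (SE 0.097; 95% interval -0.41 to 0.00; limma adjusted p = 0.244). Mrgprf, the neighbour of Mrgprd on the chromosome, measured 2.70, 2.63, 5.48 and 4.67 CPM across wild types, against 3.88, 3.72, 4.16 and 3.72 CPM in the mutants. All mutants lay between the lower and the upper pair of wild types, and the difference was 0.06 (95% interval -0.43 to 0.56; limma adjusted p = 0.909). Its sign turned under median centring, at -0.03, and quantile normalization, at -0.09.

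Whether the receptors differed from Mrgprd in their change was tested on the log2 ratio of the genes within each library, by exact two-sided permutation of the 8 libraries, with adjustment over 7 ratios. The ratio of Mrgpra3 to Mrgprd differed between genotypes by 0.05 (exact p = 0.857) and that of Mrgprx1 to Mrgprd by 0.06 (exact p = 0.886). Ratios to Mrgprd differed by 0.64 for Mrgpre (exact p = 0.0571) and by 0.91 for Mrgprf (exact p = 0.0286, the smallest that 4 against 4 libraries allow). The Mrgprf ratio was higher in every mutant than in any wild type. After adjustment both were at 0.2. With 7 ratios, a single ratio whose groups separate fully cannot go below 0.2 after adjustment, so the adjusted values do not say whether these receptors differed from Mrgprd in their change. For Mrgprb4, Mrgprb5 and Mrgpra1 the ratios differed by 0.25, 0.39 and 0.43 (exact p = 0.457, 0.171 and 0.314).

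The table held 14 further family genes from the list examined, 1 of them (Mrgprb13) annotated as a pseudogene, of which 4 passed the filter and none was called. Mrgpra9 had 5 to 11 reads per wild type against 1 to 5 per mutant, with a difference of -0.82 (95% interval -1.59 to -0.04; limma adjusted p = 0.207). With 1 library left out the Mrgpra9 difference ranged from -0.97 to -0.54. Mrgpra2b differed by -0.25 (limma adjusted p = 0.672; -0.51 without wild type 1 and -0.07 without wild type 8), Mrgprh by 0.07 (0.931) and Mas1, the founder of the family, by 0.15 (0.830). Mrgprh changed sign under median centring and quantile normalization, and Mas1 under quantile normalization. Mrgpra2a and Mrgpra2b share 60.6% of the 150-base runs of Mrgpra2a, so their counts are uncertain. Mrgpra2a, Mrgpra4, Mrgpra6, Mrgprb1, Mrgprb2, Mrgprb13, Mrgprx2 and Mrgprg missed the filter, with 0 to 11 reads in any library and exact two-sided permutation p from 0.257 to 1.0. Mrgprb3 and Mrgprb8 had 0 reads in every library. Mrgprb2, the receptor of mast cells, had at most 2 reads in any library. The 9 mast cell markers summed to 6.14 to 12.4 CPM per wild type against 9.26 to 15.0 CPM per mutant. Only 7 of them passed the filter, with 6 higher, 1 lower and none called.

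**Figure D3:**
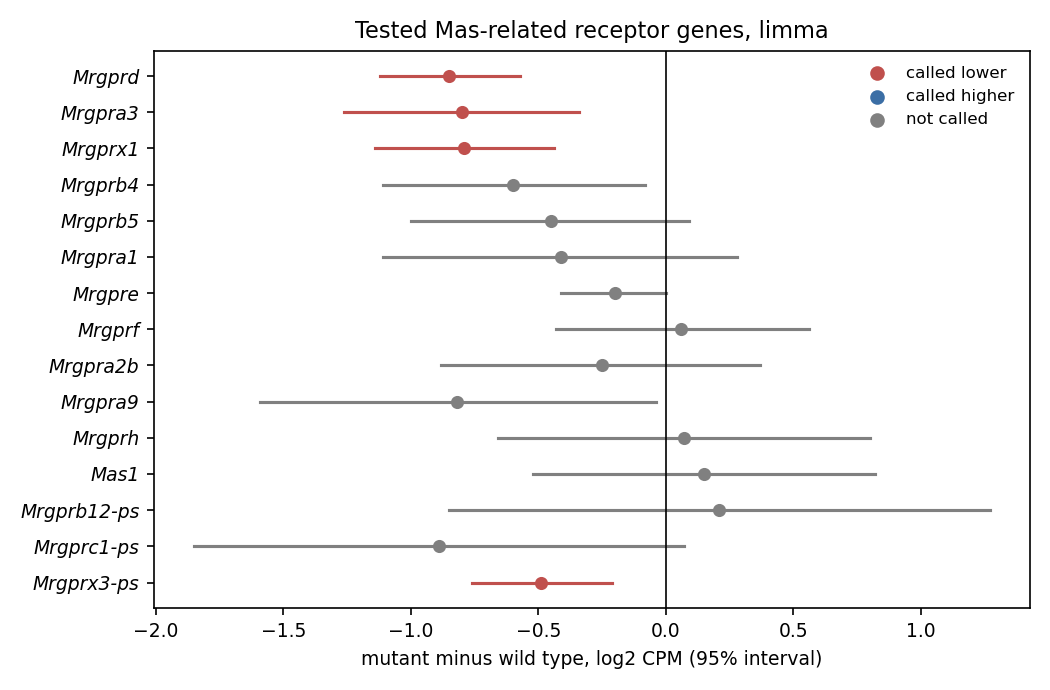
Mutant minus wild-type difference in log2 CPM with its 95% interval from limma (4 mice per group) for the 8 receptors and the 7 other family rows that passed the filter. Red marks genes called lower, and grey genes not called. Low-count genes such as Mrgpra9 and Mrgprc1-ps have wide intervals.

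Other transcripts listed for NP1 neurons were also lower in the mutant. The lists here and below were chosen with earlier results of these data known, so their counts are descriptions. Among all genes tested, 2.64% were called lower and 2.81% higher. From a list of 12 NP1 companions, all 12 fell and none rose, with a median of -0.69. Those with the largest falls were Lpar5, a lysophosphatidic acid receptor, at -1.01 (SE 0.127; limma adjusted p = 0.000581), and Agtr1a, the angiotensin receptor, at -0.91 (limma adjusted p = 0.00165). Prkcq, a protein kinase C, fell by 0.83, Lpar3 by 0.72, Scn11a, a sodium channel of nociceptors, by 0.71 and Tmem45b by 0.71 on the log2 scale. Plxnc1, a semaphorin receptor, fell by 0.67, P2rx3, the ATP-gated channel, by 0.64 and Gfra2, a neurturin receptor, by 0.49. Cd55 fell by 0.41 and Ret, the signalling partner of Gfra2, by 0.31. The Cd55 call did not survive omission of wild type 3 (limma adjusted p = 0.0553) or 8 (0.0604), or of mutant 1 (0.0680) or 4 (0.0602). The mean log2 CPM of the list ranged from 7.46 to 7.53 over wild types and was 6.71, 6.97, 7.03 and 6.58 in mutants 1 to 4, the same order of mutants as for Mrgprd. The log2 ratio of Mrgprd to this mean averaged 0.54 ± 0.11 over wild types against 0.36 ± 0.15 over mutants (SD, n = 4). The difference of -0.18 did not pass (exact two-sided permutation p = 0.143; 0.429 after adjustment over 5 ratios). With 5 ratios, a single ratio whose groups separate fully cannot pass after adjustment. The adjusted value therefore does not say whether Mrgprd differed from this list in its change.

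The list of 8 NP2 companions was less uniform, with 4 called lower and 4 not called, and a median of -0.30. Osmr, the oncostatin receptor shared with other itch neurons, fell by 1.4 (SE 0.10; limma adjusted p = 2.29e-06) and Hrh1, the histamine receptor, by 0.96 (limma adjusted p = 0.00699). Plcb3, the phospholipase C of these neurons, fell by 0.61 (limma adjusted p = 0.000917) and Trpa1, the channel opened downstream of Mrgpra3, by 0.29 (limma adjusted p = 0.0335). The Trpa1 call did not survive omission of wild type 3 (0.0694) or 8 (0.0765), or of mutant 2 (0.0902), 3 (0.0653) or 4 (0.0636). Trpv1 differed by -0.32 (limma adjusted p = 0.0579; 0.0115 under median centring), and Gfra1 by -0.10, while Calca averaged 675 ± 9.56 CPM over wild types against 676 ± 54.1 CPM over mutants. The wider peptidergic list had 1 of 6 genes called lower, Calcb, at -0.31, and none higher. The Calcb call ended on omission of wild type 3, 4 or 8 (limma adjusted p = 0.0766, 0.0522 and 0.0817) or of mutant 1 or 3 (0.0838 and 0.0699). The ratios of Mrgpra3 and Mrgprx1 to the mean of the NP2 companions differed by -0.34 and -0.33 (exact two-sided permutation p = 0.400 and 0.171; -0.44 to -0.12 and -0.43 to -0.21 with 1 library left out), and those of Mrgprb4 and Mrgprb5 by -0.13 and 0.01 (0.714 and 1.0). Mrgprb4 and Mrgprb5 were set beside the NP2 list although their fibres are described separately above. In mutant 3, where Mrgpra3 and Mrgprx1 were highest of the mutants, the mean of the NP2 companions was 6.70. This was the lowest of the mutants, which ranged to 6.74.

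The signalling genes were described next, from a list of 24 G proteins, phospholipases, kinases, channels and regulators through which these receptors act. Of these 10 were called lower and 1 higher, with a median of -0.20. The G protein subunits Gnaq (-0.37; limma adjusted p = 0.00346), Gna14 (-0.67) and Gnao1 (-0.54) fell, while Gna11, the other broadly made Gq subunit, differed by -0.01 (95% interval -0.14 to 0.12). The phospholipases divided, with Plcb3 called lower and Plcb1 and Plcb4 at 0.23 and 0.24 without a call (limma adjusted p = 0.0574 and 0.0650). The protein kinases C Prkca, Prkcd and Prkce fell by 0.59, 0.68 and 0.30 on the log2 scale, and the receptor kinase Grk2 by 0.31. Prkce and Grk2 lost their calls without wild type 1 (limma adjusted p = 0.0589 and 0.0569), and Grk2 also without mutant 1 (0.0505). Arrb1 and Arrb2, the arrestins, differed by -0.07 and 0.00.

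**Figure D4:**
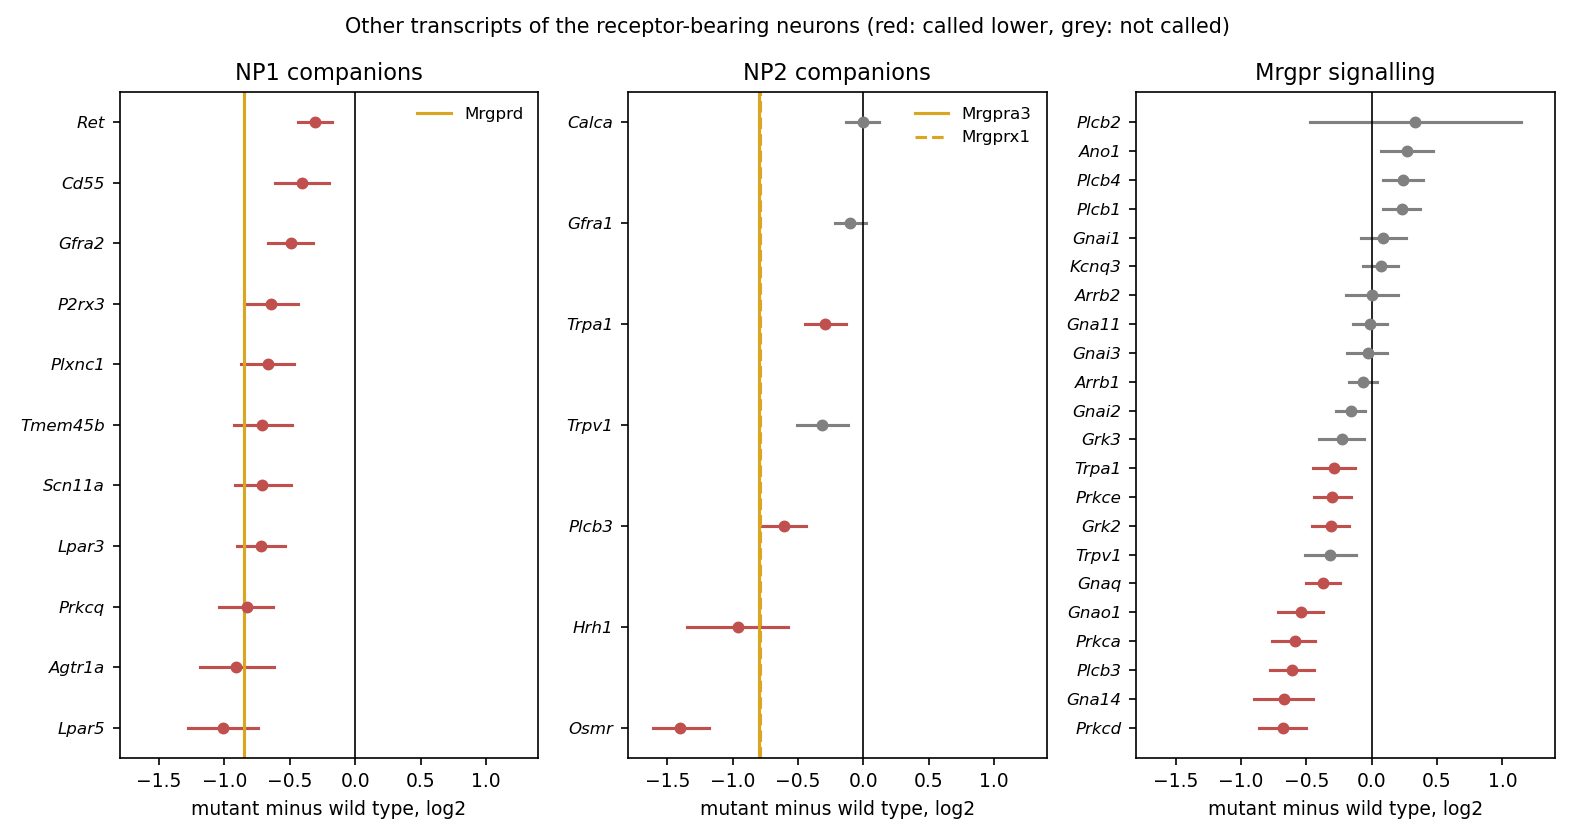
Mutant minus wild-type difference in log2 CPM with its 95% interval from limma (4 mice per group) for genes listed with Mrgprd in NP1 neurons, with Mrgpra3 and Mrgprx1 in NP2 neurons, and for signalling genes of the receptors. Gold lines mark the receptors' own differences. The 11 NP1 genes drawn lie below 0, and the NP2 genes range from -1.4 to about 0.

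Among 13 transcription factors and growth factor receptors tied to the development of these neurons, Runx1 and Ret fell and none rose. Runx1 averaged 166 ± 3.40 CPM over wild types against 125 ± 14.5 CPM over mutants, a difference of -0.41 (SE 0.074; limma adjusted p = 0.00567) with groups that did not overlap. Its DNA-binding partner Cbfb differed by 0.17 (limma adjusted p = 0.181), the relative Runx3 by -0.01 (95% interval -0.28 to 0.26), and Isl1, Pou4f1, Klf7 and Tlx3 by 0.11, -0.14, -0.13 and -0.15, none of them called. Of 11 tested genes tied to ligands of the receptors, 2 rose and none fell. They were Slc6a6, a carrier of taurine and beta-alanine, at 0.55 (limma adjusted p = 0.0112), and Csad, an enzyme of taurine synthesis, at 0.54 (0.0187). The Csad call did not survive omission of wild type 1 (0.0619) or 3 (0.0531), or of mutant 1 (0.0513) or 4 (0.0602). Penk, the source of the Mrgprx1 peptide, averaged 3.75 ± 0.300 CPM over wild types against 6.57 ± 3.70 CPM over mutants and was not called (limma adjusted p = 0.237).

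The NP3 itch neurons, which lack most of these receptors, had 7 of 8 markers called lower and a median of -1.86. They were Sst at -4.06, Nppb at -3.47, Il31ra at -3.28, Cysltr2 at -2.32, Osmr at -1.4, Htr1f at -1.18 and Jak1 at -0.31 on the log2 scale. Nppb had 13 to 40 reads per wild type against 0 to 1 per mutant and passed the filter through the wild types alone. Sst had 47 to 124 reads against 1 to 5. The sizes of both falls depend on the processing, at -5.09 to -2.06 for Nppb and -4.70 to -3.04 for Sst over the alternatives tried. Among all genes tested, 2.64% were called lower and 2.81% higher. Only 35.6% of them had a negative difference, so most genes were higher in the mutant. Markers of other cells were read beside the receptors. The 11 pan-neuronal genes summed to 9670 to 10700 CPM per wild type against 9690 to 10400 CPM per mutant, with 3 higher, 8 lower and none called. C low-threshold mechanoreceptor markers had 1 higher, 4 lower and none called among 5 in the table, and all 9 large neurofilament neuron markers were higher with none called (8400 to 9730 against 9300 to 10600 CPM summed). Satellite glia markers had 2 of 6 called higher (among them Glul at 0.49; 1960 to 2420 against 2220 to 3120 CPM), and myelinating Schwann cell markers 2 of 8 (Ncmap at 0.69 and Drp2 at 0.40; 2440 to 3200 against 2890 to 3490 CPM). Fibroblast markers had 1 of 7 called higher (Dcn at 0.60; 688 to 1480 against 883 to 1360 CPM) and immune markers 1 of 6 tested (Cd163 at 0.80; 39.6 to 62.7 against 53.6 to 87.2 CPM). Smooth muscle, endothelial and red blood cell markers had none called, with sums of 28.7 to 47.4 against 38.0 to 73.3 CPM, 58.7 to 87.3 against 62.5 to 95.3 CPM and 39.9 to 108 against 65.0 to 124 CPM. Of these calls, Drp2 did not survive omission of wild type 1 or 3 (limma adjusted p = 0.0589 and 0.0549) or mutant 1 or 4 (0.0693 and 0.0540), nor Cd163 that of wild type 8 (0.0552) or mutant 1 or 4 (0.0727 and 0.0631). No listed marker of these cells was at 0 in all libraries. The part of these cells in the receptors' differences was not tested.

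The genes whose log2 CPM followed Mrgprd most closely over the 8 libraries, by Pearson's r among the genes tested, were Arhgap1 (0.995), a GTPase-activating protein, Grik1 (0.994), a kainate receptor subunit, and Syt1 (0.992), a synaptic vesicle calcium sensor. Grik1 and Syt1 fell by 0.63 and 0.25 on the log2 scale (limma adjusted p = 0.00197 and 0.0146), and Arhgap1 differed by -0.16 (0.151). Those closest to Mrgpra3 were Krt27 (0.976), Mef2a (0.972) and Soga3 (0.950), none of them called. These values describe 8 libraries that fall into 2 genotypes, picked as the highest of 15030 genes.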

How the data were processed

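Values deposited by the authors are moderated log2 CPM of whole-ganglion RNA, in 1 column per mouse, matched to the labels through the genotype and number each column name shows. Other numbers in those names, of unstated meaning, run consecutively in the mutants and not in the wild types, so a batch recorded there cannot be told apart from genotype. Per the submitters' processing notes, Salmon 0.11.1, DESeq2 and the build mm9 were used, with no role or order given; the annotation release, filters and strand use are not given in the sources used here. Of 41422 lines, 402 identifiers were repeated with equal values, which left 40800 genes. After the shared floor of -1.79 was removed, 100.0% of values were whole reads within 0.05, which gave reads, library totals and CPM. Reads are not independent molecules.

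Differences were fitted with limma 3.58.1 in R 4.3.3 (mean-variance trend, two-sided, no covariate) for the 15030 genes above 0 log2 CPM in at least 4 of 8 libraries. Single values used exact permutation (scipy 1.17.1). Positions and transcripts come from GENCODE M21 (GRCm38), which is not the authors' build and only places the genes, and promoters from RefSeq (GRCm38.p6). Transcripts were aligned with blastn 2.17.0. Tested on simulated reads for this comparison, the fit called 186 of 200 genes (93%) changed by 1 on the log2 scale, with 14 false calls among 15079 genes tested. The simulation gave every gene the same relative spread between mice beyond counting error, and changed only genes above a minimum read count. These shares therefore need not hold for receptors with few reads or a wider spread.

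The receptors and gene lists were chosen with earlier results of these data known, so counts over lists are descriptions. Some listed genes enter these counts but are not reported here by name or drawn. Named are Tmem184b, the 8 receptors, their listed relatives with at least 1 read, called members of the other lists, Runx1, Plcb3, Gnaq, Trpa1 and Trpv1, and the 3 genes most like Mrgprd and Mrgpra3; other uncalled genes and Mrgpr rows named were chosen after their values were seen. Also tried were other filters and thresholds, a pseudocount of 1 CPM, median and quantile scaling, other variance models, array weights, an Xist covariate, omission of each library, a replicate block and voom on recovered reads.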

Additional observations from a re-analysis of the deposited data

Results flagged for a closer look

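In 48 groups of 4 values, 2 held a library far from the other 3 in its group, where chance alone gives about 2.4, and both concern Mrgpra3 in wild type 8. There Mrgpra3 reached 5.21 log2 CPM, from 290 reads, where the remaining wild types held 4.16 to 4.33. The log2 ratio of Mrgpra3 to the mean of the NP2 companions was -2.06 in this library and -2.97 to -2.82 in the rest of its group. Both values rest on the same Mrgpra3 count, and without wild type 8 the Mrgpra3 difference was -0.56 in place of -0.80.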

How the results depend on the processing

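Over 20 alternatives each, Mrgprd lay between -0.99 and -0.73 and lost its call without the variance trend alone (-0.85; adjusted p = 0.0648). Mrgprx1 lost it without the trend (-0.79; 0.0911), and Mrgpra3 there (-0.80; 0.168) and with a robust trend (-0.80; 0.127), array weights (-0.71; 0.0505), the Xist covariate (-0.75; 0.0655) or voom (-0.84; 0.0552), keeping it in 8 of 20. With 1 library left out, the ranges were -0.99 to -0.73 for Mrgprd, -0.91 to -0.56 for Mrgpra3, -0.88 to -0.64 for Mrgprx1, -0.88 to -0.43 for Mrgprb4, -0.71 to -0.29 for Mrgprb5, -0.60 to -0.25 for Mrgpra1, -0.28 to -0.13 for Mrgpre and -0.08 to 0.24 for Mrgprf. Mrgprf was at -0.03 under median centring and -0.09 under quantile normalization, Mrgprh at -0.02 and -0.11, with -0.12 to 0.32 by omission, and Mas1 at -0.02 under quantile normalization. Omission moved the ratios to Mrgprd between -0.11 and 0.33 for Mrgpra3 and between -0.09 and 0.24 for Mrgprx1, and those to the NP2 companions between -0.43 and 0.04 for Mrgprb4 and between -0.25 and 0.17 for Mrgprb5.

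Over all genes, 423 were higher and 397 lower (51.6% higher), against 204 and 706 under median centring (22.4%), 271 and 422 under quantile normalization (39.1%), 67 and 75 without the trend and 876 and 612 at an adjusted p under 0.1. Omission gave 174 to 572 higher (lowest without wild type 1, and also 226, 183, 266 and 206 without wild type 3 and mutants 1, 2 and 4) and 230 to 427 lower (lowest without wild type 1). The numbers 1, 3 and 4 are shared by both genotypes. Correlations of deviations between libraries of the same number were 0.081, 0.041 and 0.058, which cannot decide whether the numbers pair the mice. With a replicate block on these 6 libraries, 326 genes were higher and 345 lower, against 180 and 267 in the same 6 without it. Under the block Mrgpra3 was at -0.63 (0.0616 with, 0.0865 without) and Mrgprx1 at -0.57 (0.0524 and 0.0742). Causes of these shifts were not tested. Mrgpra1 and Mrgpra9, at 1 to 11 reads a library, are limited by depth.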

Other observations

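Of the 33 Mrgpr rows, 12 were neither the 8 receptors nor listed relatives, all 12 annotated as pseudogenes, and 3 of the 12 passed the filter. Mrgprx3-ps (chromosome 7, 47309378 to 47310295 in GRCm38), annotated as an unprocessed pseudogene 24579 bases from Mrgpra1, measured 28.9, 25.1, 30.7 and 31.8 CPM across wild types, against 15.7, 20.1, 24.8 and 23.2 CPM in the mutants. Its groups did not overlap, and it fell by 0.49 (SE 0.130; limma adjusted p = 0.0433). It was picked after its values were seen. Its call is near the threshold, and whether the call holds with a library left out or under other settings was not examined. Per kilobase its wild-type mean of 31.7 CPM was above that of Mrgpra3 (17.9). Its transcript is 89.8% identical to Mrgpra9 over 920 bases and shares no 150-base run with another annotated transcript. Mrgprc1-ps had 6 to 23 reads per wild type against 1 to 9 per mutant and was not called (limma adjusted p = 0.276), and neither was Mrgprb12-ps (0.853).

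Summed over all 33 rows, Mrgpr transcripts averaged 417 ± 9.09 CPM over wild types against 260 ± 52.2 CPM over mutants (SD, n = 4), or 62.4%. Without Mrgprd the sums were 156 ± 19.7 and 112 ± 15.9 CPM. The 9 MrgprA rows, which are close copies of one another, summed to 29.8 ± 10.2 and 17.4 ± 3.28 CPM, or 58.4%, beside 55.5% for Mrgpra3 alone. Mrgprx1, Mrgprx3-ps and the C-type pseudogenes, grouped by symbol, summed to 51.8 ± 8.05 and 33.9 ± 4.90 CPM, or 65.4%, beside 57.0% for Mrgprx1 alone. Most of this sum was Mrgprx3-ps, at 29.1 ± 2.96 and 20.9 ± 4.01 CPM, or 71.9%. By sequence Mrgprx3-ps is closest to Mrgpra9, so this sum is not one of close copies of Mrgprx1. These sums are descriptions with no test.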
